A study of Mus musculus with 7 samples.

Results

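The genes described here encode 10 secreted or membrane proteins of antimicrobial and mucosal defence, chosen by symbol from the 24964 genes of the table: Ltf, Lcn2, S100a8, S100a9, Slpi, Wfdc2, Camp, Defb1, Lyz2 and Pigr. Their RNA was measured by RNA sequencing of whole uterus from mice that were 12 weeks old and in diestrus, the quiet stage of the estrous cycle. The 3 control libraries, numbered 1, 2 and 4, had the genotype Pgrcre/+, a Cre recombinase knocked into the progesterone receptor gene and so active where that gene is active. The 4 libraries labelled Foxl2LsL, numbered 1 to 4, had the genotype Pgrcre/+Foxl2LsL/+, so the Cre allele was shared by all 7. The comparison asks what differs in uteri meant to make extra FOXL2, a transcription factor of the forkhead family. The labels do not say whether a library came from 1 animal or a pool, so the p-values below measure only the spread between these libraries.

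The epithelium that lines the uterus and its glands secretes proteins that hold back microbes in the lumen. Some withhold iron, zinc or manganese, some damage bacterial membranes or walls, some block host proteases, and a receptor carries antibodies across the cell layer. Several of the same proteins are also stored in neutrophils, the granulocytes that enter infected tissue, and Ltf is a classical estrogen-responsive gene of the mouse uterus. In whole tissue, fewer cells of a type and less RNA per cell cannot be told apart.

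Of the 10 genes, 3 rose in the libraries labelled Foxl2LsL: Ltf, Lcn2 and Wfdc2. Slpi, Lyz2 and Pigr did not pass the test, and S100a8, S100a9, Camp and Defb1 lay below 1 FPKM on average and were not tested. FPKM counts fragments per length of gene and per size of library, so levels of different genes can be compared per length. Values given with ± are a mean and its SD, over n = 3 control libraries and n = 4 libraries labelled Foxl2LsL throughout. The test was limma on log2(FPKM + 1) over all 13334 genes with a mean of at least 1 FPKM, at a Benjamini-Hochberg adjusted p of 0.05. Of all genes tested 40.6% passed, 16.7% higher and 23.9% lower in the libraries labelled Foxl2LsL, so a call in this comparison was common. The median log2 fold change was 0.72 over the 6 defence genes tested and -0.05 over all genes tested. The higher share among calls was 41.1%, and 52.3% in limma-voom on recovered fragments.

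The libraries held denominators of 47800000 to 67200000 fragments, recovered from the values, and 3 fragments were taken as the floor of detection. Foxl2 itself was not higher in the libraries labelled for it, at 14.4 ± 4.32 FPKM in controls and 14.7 ± 1.86 FPKM in the libraries labelled Foxl2LsL (log2 fold change 0.06; limma adjusted p 0.818). Whether RNA from the Foxl2LsL allele is counted in this value is not given in the sources used here. The value thus cannot show whether extra FOXL2 was made or whether a label is wrong. Every direction given here is for the labels as they stand. Control 2 stood apart in Ovgp1, the oviductal glycoprotein, at 291 FPKM against 1.65 to 19.7 FPKM in the other 6 libraries. Control 4 had the lowest summed level of 12 simple epithelium markers, 898 FPKM, against 1162 and 1687 FPKM in controls 2 and 1 and 1368 to 2092 FPKM in the libraries labelled Foxl2LsL.

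The promoters of the 3 genes that rose are shown with that of Slpi, a relative of Wfdc2 in the same gene cluster that did not rise. Each line comes from the 250 bases before the RefSeq start (GRCm38.p6), 5′ to 3′, and stops where GENCODE M21 annotates a 5′ UTR of another transcript, which left out 21 bases of Ltf, 58 of Lcn2 and 136 of Wfdc2 and none of Slpi. The Slpi stretch lies in an intron of a longer Slpi transcript, and part of the Lcn2 stretch in an exon of another Lcn2 transcript. Capitals mark the C/EBP motif searched as TTGCNNAA on both strands.
Ltf, chr9:111019042-111019270, plus strand: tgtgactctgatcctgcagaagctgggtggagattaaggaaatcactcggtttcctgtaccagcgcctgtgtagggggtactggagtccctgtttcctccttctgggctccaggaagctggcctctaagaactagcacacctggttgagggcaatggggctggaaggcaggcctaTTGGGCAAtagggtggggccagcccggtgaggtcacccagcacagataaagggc
Lcn2, chr2:32387798-32387989, minus strand: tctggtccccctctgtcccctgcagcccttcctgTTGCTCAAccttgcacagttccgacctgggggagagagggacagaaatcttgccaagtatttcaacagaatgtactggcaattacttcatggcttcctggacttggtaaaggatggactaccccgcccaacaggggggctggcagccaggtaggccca
Wfdc2, chr2:164562465-164562578, plus strand: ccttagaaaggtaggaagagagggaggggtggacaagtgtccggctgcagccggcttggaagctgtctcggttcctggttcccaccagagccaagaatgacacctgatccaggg
Slpi, chr2:164356508-164356757, minus strand: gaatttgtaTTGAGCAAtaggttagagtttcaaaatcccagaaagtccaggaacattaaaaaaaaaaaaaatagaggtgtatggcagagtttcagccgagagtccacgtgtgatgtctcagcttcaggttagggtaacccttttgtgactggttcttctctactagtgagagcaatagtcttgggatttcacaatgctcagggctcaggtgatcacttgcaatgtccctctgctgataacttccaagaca

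RefSeq gave a promoter entry for 9 of the 10 genes, and motifs were searched in the whole 250 bases. The C/EBP motif was in 4 of these 9 windows and in 9.56% of all 32851 windows of that length. It began 75 bases before the start in Ltf, 216 in Lcn2, 236 in S100a9 and 241 in Slpi, and the Wfdc2 window held none. The palindromic estrogen response element (GGTCA, any 3 bases, then TGACC) was in 0 of the 9 windows (0.0639% of all), and its half-site GGTCA was in 3, those of Ltf, Wfdc2 and Pigr (35.2% of all). In Wfdc2 it was in only the other of that gene's RefSeq start entries, which is shifted by a base. Motifs of NF-kappaB (GGG, any 3 bases, then TTCC, 4.65% of all), STAT (TTCNNNGAA, 7.02%), AP-1 (TGANTCA, 6.75%) and forkhead proteins (TGTTTAC, 3.17%) were in 0 of the 9. A match or its absence describes these letters and says nothing of binding.

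Iron withholding came first by size. Ltf encodes lactoferrin, an iron-binding glycoprotein of epithelial secretions and of neutrophil granules (chromosome 9, 111019271 to 111042767, plus strand; all gene positions are GRCm38, from GENCODE M21). Its level was 159, 217 and 31.0 FPKM in controls 1, 2 and 4, and 1072, 449.7, 671 and 984 FPKM in Foxl2LsL 1 to 4. Every library labelled Foxl2LsL lay above every control, the lowest at 2.07 times the highest control, and control 4 was far below the other controls. The means were 136 ± 95.2 FPKM and 794 ± 287 FPKM, a ratio of 5.85. The log2 fold change was 2.86 (SE 0.64, 95% interval 1.37 to 4.35; limma adjusted p 0.0105), the rise ranked 23 of all tested genes. Ltf held 0.294% of all fragments in Foxl2LsL 1 and 0.00849% in control 4, and had rank 19 and rank 1949 by level among all listed genes in those libraries. The size rested in part on control 4: without it the Ltf log2 fold change was 2.01, with a limma adjusted p of 0.00419, against 0.00237 to 0.0561 over all alternatives.

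Lcn2 encodes lipocalin 2, which binds the siderophores that bacteria use to take up iron (chromosome 2, 32384633 to 32388252, minus strand). Its level was 47.9, 36.3 and 6.74 FPKM in controls 1, 2 and 4, and 336, 52.8, 95.7 and 321 FPKM in Foxl2LsL 1 to 4. The groups did not overlap, but Foxl2LsL 2 was only 1.10 times control 1, while Foxl2LsL 1 and 4 were well above all other libraries. The means were 30.3 ± 21.2 FPKM and 201 ± 148 FPKM, a ratio of 6.63. The log2 fold change was 2.67 (SE 0.84, 95% interval 0.72 to 4.62; limma adjusted p 0.0372). This call was lost when control 2, control 4 or Foxl2LsL 1, 3 or 4 was left out, with log2 fold changes of 2.99, 1.85, 2.30, 2.90 and 2.32, and across alternatives limma gave adjusted p of 0.00795 to 0.0886. With no filter on low values the Lcn2 log2 fold change kept its size, with a limma adjusted p of 0.0657.

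Ltf and Lcn2 had the same order among the libraries labelled Foxl2LsL, highest in 1 and 4, then 3, then 2. Over all genes tested, Foxl2LsL 1 and 4 were also the most alike of all pairs of libraries (Spearman correlation 0.991). Foxl2LsL 2 and 3 came next (0.987), and 1 and 2 were the least alike of this group (0.971). The closeness of Foxl2LsL 1 and 4 is thus not particular to Ltf and Lcn2. The ratio of Ltf to Lcn2 in FPKM was 3.33, 5.97 and 4.60 in controls and 3.19, 8.51, 7.01 and 3.07 in Foxl2LsL 1 to 4. No difference between the groups passed the test (log2 difference 0.13, two-sided exact permutation p 0.914). The smallest p that this test allows with 3 and 4 libraries is 0.0571.

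**Figure D1:**
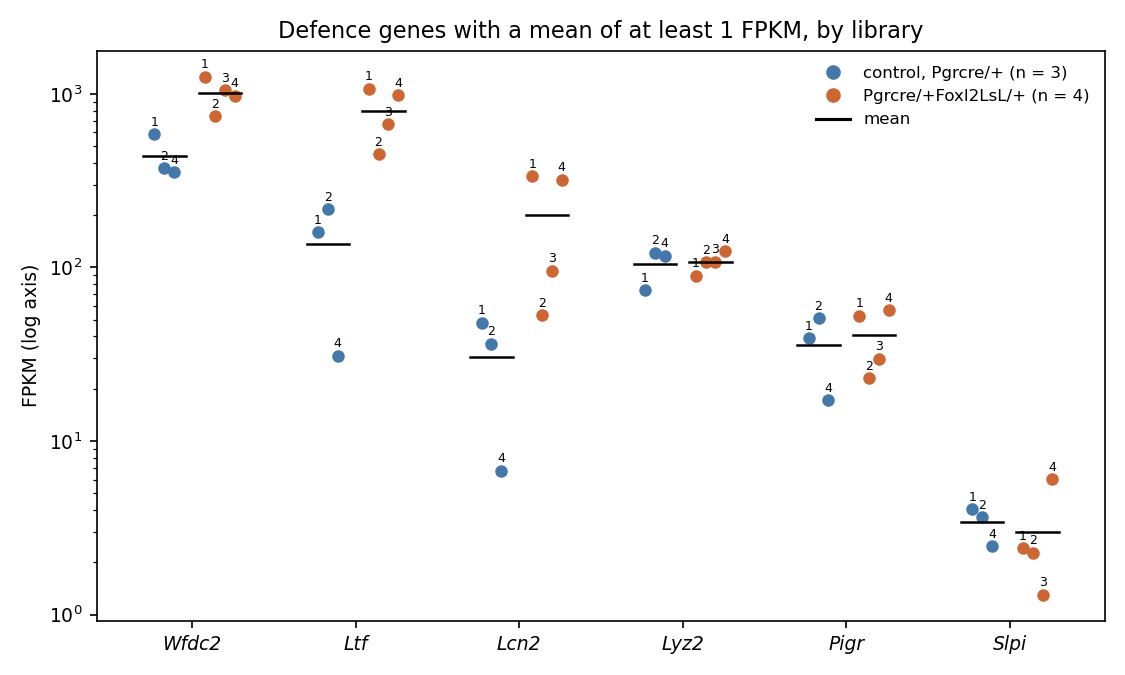
Level in FPKM (log axis) of the 6 defence genes tested, for each of the 3 control and 4 Foxl2LsL libraries, with replicate numbers beside the points and a line at the group mean. Wfdc2, Ltf and Lcn2 do not overlap between the groups, and control 4 is the lowest library for Ltf, Lcn2 and Pigr.

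The WAP proteins share a small fold held by disulfide bonds, and the 2 members here lie 173317 bases apart on chromosome 2. Wfdc2 encodes a secreted protein of epithelia of the reproductive tract and airways, also known as HE4 (164562413 to 164568510, plus strand). Its level was 583, 372 and 354 FPKM in controls 1, 2 and 4, and 1255, 741, 1053 and 976 FPKM in Foxl2LsL 1 to 4. All 4 libraries labelled Foxl2LsL lay above all 3 controls, and the spread within each group was small, at most 1.69 times from lowest to highest. The means were 436 ± 127 FPKM and 1006 ± 212 FPKM. The log2 fold change was 1.22 (SE 0.23, 95% interval 0.69 to 1.74; limma adjusted p 0.00493), and it kept its call in all 19 alternatives. Wfdc2 had the highest mean level of the 10 genes in both groups, and rank 14 of all listed genes by level in Foxl2LsL 1.

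Slpi encodes the secretory leukocyte protease inhibitor, which blocks neutrophil elastase and is also antimicrobial (chromosome 2, 164354070 to 164389095, minus strand). Its level was 4.05, 3.65 and 2.49 FPKM in controls 1, 2 and 4, and 2.42, 2.27, 1.30 and 6.02 FPKM in Foxl2LsL 1 to 4. Foxl2LsL 4 was the highest and Foxl2LsL 3 the lowest of all libraries, so the groups overlapped. The log2 fold change was -0.24 (SE 0.35, 95% interval -1.05 to 0.56; limma adjusted p 0.605). Between 69 and 277 fragments lay on Slpi in each library. The ratio of Slpi to Wfdc2 was 0.00793 ± 0.00163 in controls and 0.00310 ± 0.00218 in the libraries labelled Foxl2LsL, and the groups did not overlap (log2 difference -1.60; two-sided exact permutation p 0.0571).

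Of the 6 genes tested, 3 had groups that did not overlap, all higher in the libraries labelled Foxl2LsL. Of all genes tested 19.7% had groups apart and higher, and 27.9% apart and lower.

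**Figure D2:**
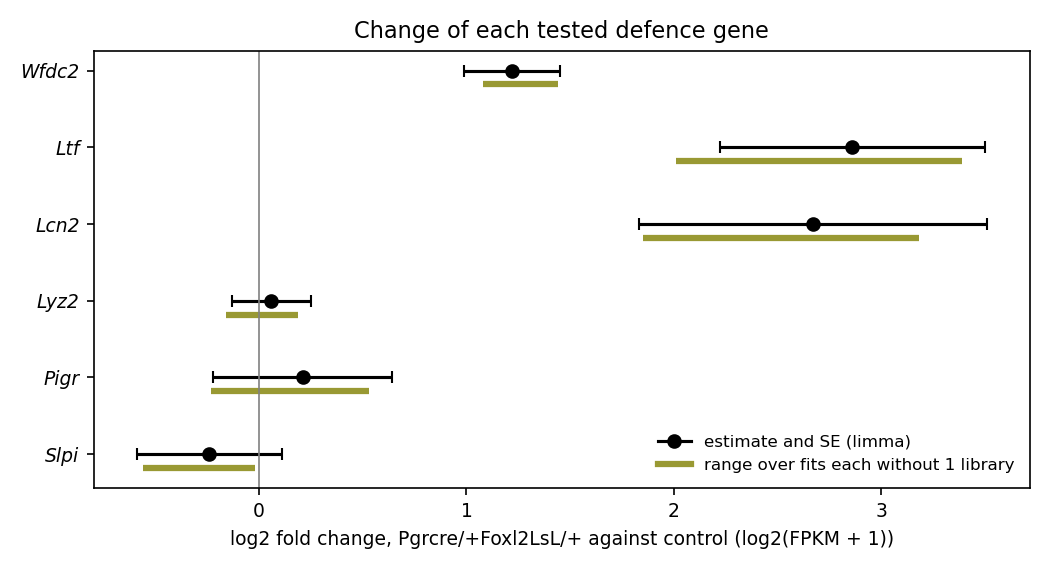
Log2 fold change of each tested defence gene, libraries labelled Foxl2LsL against control, on the log2(FPKM + 1) scale, as a point with its SE from limma. The thick line below each point is the range over the 7 fits that each left out 1 library, which stays above 0 for Wfdc2, Ltf and Lcn2 and spans 0 for Lyz2 and Pigr.

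Lyz2 encodes lysozyme, the enzyme that cuts bacterial cell walls and is made by macrophages and neutrophils (chromosome 10, 117277331 to 117282321, minus strand). Its level was 74.2, 122 and 117 FPKM in controls 1, 2 and 4, and 89.4, 107, 108 and 124 FPKM in Foxl2LsL 1 to 4. The ranges of the groups lay almost on top of each other. The log2 fold change was 0.06 (SE 0.19, 95% interval -0.37 to 0.49; limma adjusted p 0.815), and its sign turned in fits without control 1 (-0.16) or Foxl2LsL 4 (-0.01) and with array weights (-0.02). The neighbouring Lyz1, 5475 bases away, has a transcript 95.8% identical to that of Lyz2 over the aligned part, and 15.4% of the 50-base words of Lyz2 also occur in it. How reads common to both were counted is not given in the sources used here, so the values of both carry that uncertainty. Lyz1 was below the filter, at 0.574, 0.976 and 3.46 FPKM in controls 1, 2 and 4 and 0.241 to 0.562 FPKM in the libraries labelled Foxl2LsL. Every one of the latter was below every control, and control 4 stood apart.

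Pigr encodes the polymeric immunoglobulin receptor, which carries dimeric IgA from the tissue across the epithelium into the lumen (chromosome 1, 130826684 to 130852249, plus strand). Its level was 39.3, 50.9 and 17.1 FPKM in controls 1, 2 and 4, and 52.8, 23.0, 29.8 and 56.9 FPKM in Foxl2LsL 1 to 4. Foxl2LsL 1 and 4 were again the highest of their group and control 4 the lowest of all, but the groups overlapped. The log2 fold change was 0.21 (SE 0.43, 95% interval -0.78 to 1.21; limma adjusted p 0.717), and it was -0.23 without control 4, with an adjusted p of 0.639 by limma, against 0.415 to 0.991 over all alternatives. Among 18 genes of the antibody path, 7 were tested and 0 passed in limma at an adjusted p of 0.05, while 2 had an unadjusted p below 0.05 and limma-voom called 1; the median log2 fold change was 0.04. The immunoglobulin constant genes of that list were not analysed here. Jchain, which joins IgA dimers, was at 4.53 ± 5.05 FPKM and 4.72 ± 1.72 FPKM. Ccl28, a chemokine that draws IgA-secreting cells to mucosae, was at 10.7 ± 1.17 and 19.1 ± 8.39 FPKM and did not pass (limma adjusted p 0.0942).

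The remaining 4 genes were below 1 FPKM in every library, with 0 to 23 fragments each. S100a8 and S100a9 encode the subunits of calprotectin, which binds zinc and manganese and fills the cytosol of neutrophils; their genes are 22596 bases apart on chromosome 3. S100a8 had 6, 13 and 8 fragments in controls 1, 2 and 4 and 3, 6, 5 and 4 in Foxl2LsL 1 to 4. S100a9 had 8, 8 and 3 fragments in controls and 2, 1, 7 and 3 in Foxl2LsL 1 to 4. Summed over a group, S100a8 stood at 0.351 FPKM in controls (exact 95% Poisson interval 0.231 to 0.511) and 0.203 FPKM in the libraries labelled Foxl2LsL (0.120 to 0.321). For S100a9 the sums gave 0.185 FPKM (0.111 to 0.289) and 0.110 FPKM (0.0584 to 0.187). These intervals cover counting error only, and those of the groups overlapped for both genes. The ratio of S100a8 to S100a9 ranged from 0.955 to 8.0 over the 7 libraries, and its groups overlapped (log2 difference 0.21, two-sided exact permutation p 0.971), with as few as 1 fragment behind a value.

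Camp encodes the precursor of cathelicidin, a membrane-damaging peptide of neutrophil granules and epithelia. It had 6, 2 and 3 fragments in controls 1, 2 and 4 and 0, 9, 3 and 0 in Foxl2LsL 1 to 4. A count of 0 allowed a level of up to 0.0764 FPKM in Foxl2LsL 1 and 0.0953 FPKM in Foxl2LsL 4. Defb1 encodes a beta-defensin made by epithelia, a small cationic peptide. It had 6, 15 and 23 fragments in controls and 7, 5, 11 and 3 in Foxl2LsL 1 to 4, or 0.245 FPKM (0.178 to 0.329, exact 95% Poisson interval) and 0.125 FPKM (0.0819 to 0.184) over the groups. The libraries overlapped for Camp, Defb1 and both S100 genes, and when all genes above 0 were tested none of these 4 passed (limma adjusted p 0.189 to 0.991).

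**Figure D3:**
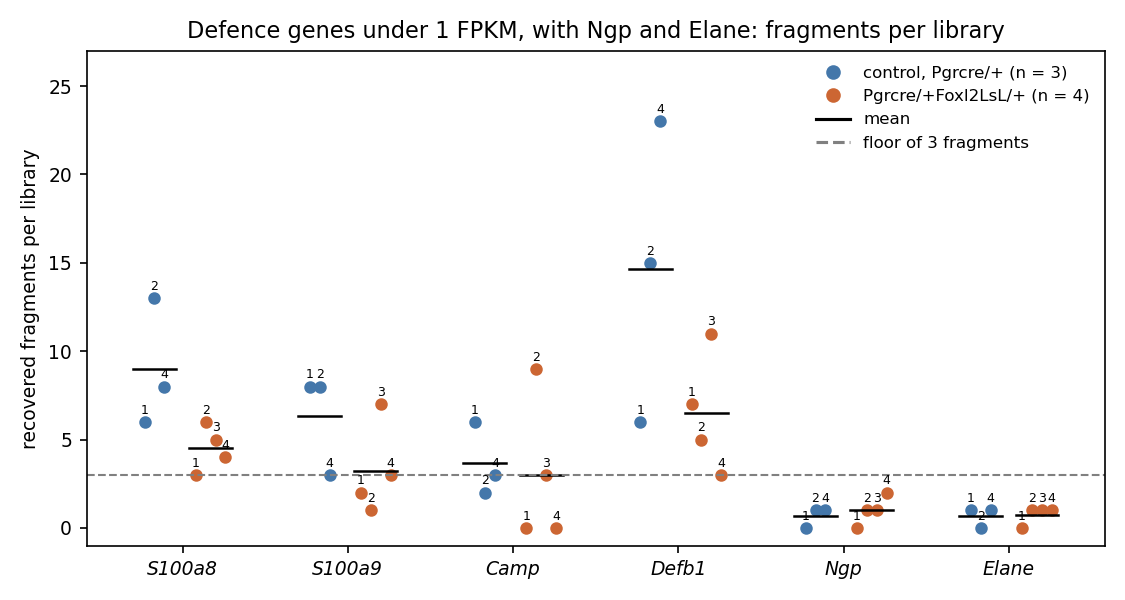
Recovered fragments per library for the 4 defence genes below 1 FPKM and for the neutrophil granule genes Ngp and Elane, with replicate numbers beside the points, a line at the group mean and a dashed line at the floor of 3 fragments. Ngp and Elane have 0 to 2 fragments in every library, and the largest count is 23, for Defb1 in control 4.

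The rise of Ltf and Lcn2, proteins that neutrophils also store, was set beside neutrophil markers. Ngp, a granule gene related to Camp, had 0 to 2 fragments, and Elane, which encodes neutrophil elastase, had 0 or 1 fragments in each library. Of 14 neutrophil markers, 10 or 11 were below 1 FPKM in every library, 1 or 2 were at 0 in each control and 4 in each library labelled Foxl2LsL, and their sum was 7.21 to 8.66 FPKM in controls and 9.89 to 25.4 FPKM in the libraries labelled Foxl2LsL. Most of that difference lay in Itgam, an integrin chain of macrophages as well as neutrophils: without it the sums were 5.40 to 7.06 FPKM and 6.96 to 8.65 FPKM. Of the 4 tested, 2 passed, both higher. The other tested markers, Ly6g and Retnlg, had groups that overlapped and did not pass. Ly6g was at 1.03 ± 0.608 and 1.70 ± 0.498 FPKM (log2 fold change 0.44, limma adjusted p 0.177). Retnlg was at 1.82 ± 0.628 and 1.27 ± 0.677 FPKM (log2 fold change -0.33, limma adjusted p 0.315). Mmp9, which encodes a matrix protease, rose from 1.17 ± 0.173 FPKM to 3.50 ± 0.765 FPKM. Itgam rose from 1.80 ± 0.196 to 9.32 ± 7.07 FPKM, highest in Foxl2LsL 4 (18 FPKM) and 1 (12.2 FPKM), and lost its call without control 1, 2 or 4 or Foxl2LsL 1 or 4 and in limma-voom. Of the 10 below the filter, Cxcr2, Cd177 and Trem1 were lower in all 4 libraries labelled Foxl2LsL than in all controls. Cxcr2, a chemokine receptor of neutrophils, had 13 fragments in controls and 1 in the others, and Trem1 had 5 and 0. Cd177, a neutrophil surface protein, was at 0.191 to 0.225 and 0.0110 to 0.0370 FPKM. Mpo, the granule peroxidase, and Csf3r, the receptor for the product of Csf3, overlapped, at means of 0.317 and 0.138 FPKM and of 0.946 and 0.565 FPKM.

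Macrophage markers, which bear on Lyz2, summed to 123 to 166 FPKM in controls and 145 to 191 FPKM in the libraries labelled Foxl2LsL, and none of the 12 was at 0. Of these 12, 2 were higher and 1 lower past the threshold, with a median log2 fold change of 0.10. Mrc1, a mannose receptor of tissue macrophages, rose from 2.63 ± 0.590 FPKM to 8.32 ± 0.864 FPKM. Csf1r, the receptor for macrophage colony-stimulating factor, had a log2 fold change of 0.64, and Ms4a7 one of -0.77. C1qa, the marker of this list with the highest level, was at 31.6 ± 6.23 and 37.4 ± 4.55 FPKM and did not pass with all libraries (log2 fold change 0.25, limma adjusted p 0.197). Without control 2 the C1qa log2 fold change was 0.40 and passed, with a limma adjusted p of 0.0498, against 0.457 as the highest over all alternatives. The part of these markers in the level of Lyz2 was not tested.

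Of 12 simple epithelium markers, 4 were higher past the threshold, 0 were lower and 8 did not pass, with a median log2 fold change of 0.44. Among the 8, Cdh1 and Cldn3, genes of cell junctions, had log2 fold changes of -0.08 and -0.24, and Epcam and Krt8 of 0.27 and 0.35, all with groups that overlapped. Elf3, an epithelial transcription factor, rose from 55.2 ± 37.2 FPKM to 204 ± 105 FPKM, and it too was highest in Foxl2LsL 1 and 4 and lowest in control 4. Its call was lost without control 2, control 4, Foxl2LsL 1 or Foxl2LsL 4. Krt18 and Krt7, keratins of simple epithelia, had log2 fold changes of 0.80 and 0.95, and Ehf, a relative of Elf3, rose from 24.5 ± 7.11 to 50 ± 14 FPKM. Krt7 lost its call without control 2 or 4 or Foxl2LsL 1, 3 or 4, with a Krt7 log2 fold change of 0.61 without control 4, and Ehf without Foxl2LsL 3. Krt19, the marker with the highest level, did not pass (246 ± 84.6 and 344 ± 41.6 FPKM). The Krt19 log2 fold change was 0.53 with all libraries and 0.26 without control 4, and it passed only without control 1 and with array weights.

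To set the defence genes against the epithelium, each was divided by the summed FPKM of those 12 markers in the same library, a comparison chosen after seeing the data. Ltf was then 9.45%, 18.7% and 3.45% of the sum in controls 1, 2 and 4, and 51.2%, 32.9%, 36.5% and 50.3% in Foxl2LsL 1 to 4. Lcn2 was 0.75% to 3.13% in controls and 3.86% to 16.4% in the libraries labelled Foxl2LsL. Wfdc2 was 32.0% to 39.4% and 49.9% to 60.0%. These 3 genes still did not overlap between the groups (two-sided exact permutation p 0.0571 for each, the smallest possible), with log2 differences of 2.31, 2.18 and 0.65 against 2.88, 2.75 and 1.22 for the levels themselves. Slpi, Lyz2 and Pigr overlapped on this scale too, and their log2 differences were -0.95, -0.51 and -0.35, with exact permutation p of 0.171, 0.286 and 0.457. The division lowers the log2 difference of every gene by the same amount, set by the marker sum. The shift of these differences therefore says nothing of a single gene.

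**Figure D4:**
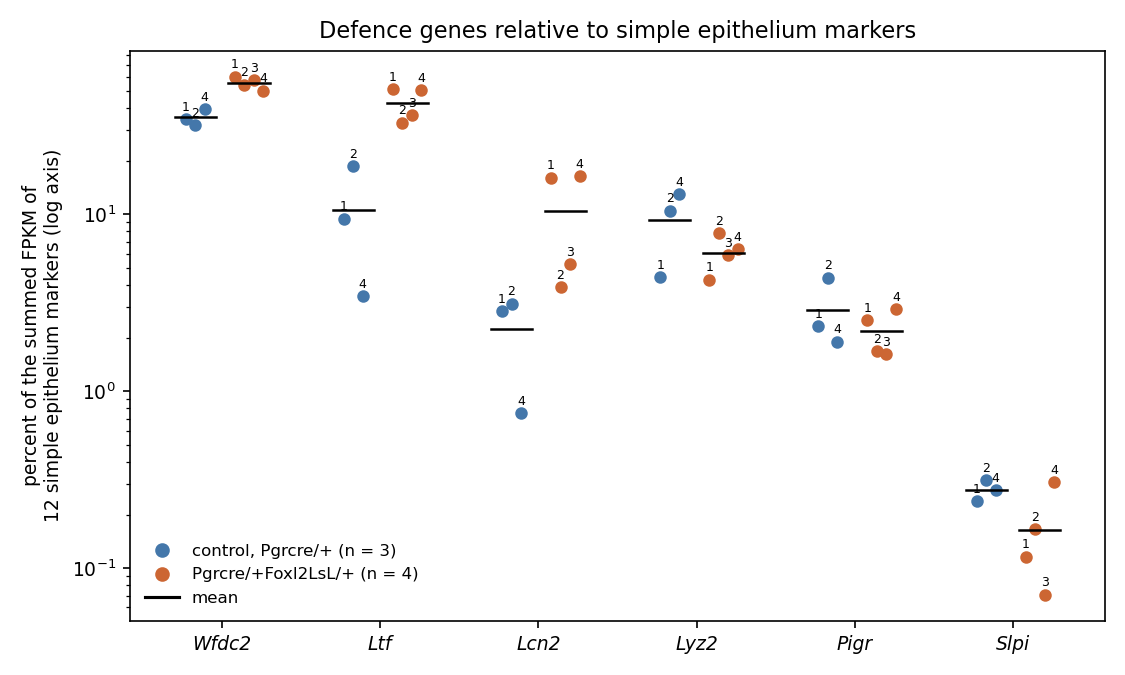
Level of each tested defence gene as a percentage of the summed FPKM of 12 simple epithelium markers (log axis), for 3 control and 4 Foxl2LsL libraries, with replicate numbers and a line at the group mean. Wfdc2 lies at 32.0% to 39.4% in controls and at 49.9% to 60.0% in the libraries labelled Foxl2LsL, while Lyz2, Pigr and Slpi overlap.

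Markers of the uterine glands, which secrete much of the luminal fluid, were lower in sum, though not in every gene. Of 6 tested, 3 were lower past the threshold and 0 higher, with a median log2 fold change of -1.03, and the summed level of all 10 was 70.3 to 108 FPKM in controls and 23.5 to 33.0 FPKM in the libraries labelled Foxl2LsL. Cxcl15 fell from 27.8 ± 5.19 FPKM to 4.26 ± 0.813 FPKM, and Foxa2 and Aldh1a1 had log2 fold changes of -1.50 and -1.47. Sox9, Wnt7b and Lif did not pass, with log2 fold changes of -0.58, 0.31 and 0.41. Lif passed with array weights and without Foxl2LsL 2. Prss29, below the filter, was higher in all 4 libraries labelled Foxl2LsL, at 0.0320 to 0.168 FPKM against at most 0.0250 FPKM. It had at most 13 fragments in a library. Ttr, also below the filter, was lower in all 4, at most 0.0540 FPKM against 0.207 to 1.67 FPKM. Spink1 was at 0 in all 4 and at 0 to 3.86 FPKM in controls. Markers of stratified epithelium, which would mark cervix or vagina in the sample, summed to 4.10 to 14.5 FPKM and 10.6 to 37.6 FPKM, and 1 of 4 tested passed, Krt13 (log2 fold change 0.68), whose call was lost in 6 of the 7 fits without 1 library, all but that without control 1. Their most abundant gene, Sprr1a, was at 27.7 and 19.0 FPKM in Foxl2LsL 1 and 4 and at 0.617 to 8.89 FPKM in the others, but it did not pass. Below the filter, Krt5, a keratin of basal cells, was at 0.0340 to 0.0580 FPKM in controls and 0.483 to 2.22 FPKM in the libraries labelled Foxl2LsL, from 19 and 701 fragments in all. Krtdap was also higher in all 4, at 0.125 to 0.290 FPKM against at most 0.0690 FPKM. Other genes of the list did not share this. Lor and Krt15 were tested and did not pass, with log2 fold changes of -0.36 and 0.30. Below the filter, Ivl, Krt14 and Trp63 had groups that overlapped. Their means in controls and in the libraries labelled Foxl2LsL were 0.420 and 0.0675, 0.240 and 0.136, and 0.286 and 0.257 FPKM. Eosinophil markers were all below 1 FPKM, with sums of 0.434 to 0.559 FPKM in controls and 0.724 to 1.14 FPKM in the libraries labelled Foxl2LsL. Il5ra (17 and 245 fragments in all) and Ear2 (32 and 55) were higher in all 4 libraries labelled Foxl2LsL. The other markers of that list had groups that overlapped. Smooth muscle markers had 2 of 7 higher and 0 lower, stroma markers 1 of 8 higher and 3 lower, and oviduct and ciliated cell markers 1 of 4 tested higher and 1 lower, with median log2 fold changes of 0.53, -0.56 and -0.53. Control 4 stood apart here too. Its smooth muscle sum was 1721 FPKM, against 969.6 and 885 FPKM in controls 1 and 2 and 1555 to 1992 FPKM in the libraries labelled Foxl2LsL. Its stroma sum, 2308 FPKM, was the highest of all libraries. Without control 4, Acta2, Cnn1, Des, Actg2 and Smtn of the smooth muscle list also passed. The part of these markers in the levels of Ltf, Lcn2 and Wfdc2 was not tested.

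Among 40 other genes of secreted defence, 16 were tested, of which 3 were higher and 6 lower past the threshold, with a median log2 fold change of -0.64. Sftpd, which encodes surfactant protein D, a collectin that binds microbial sugars, rose from 22.4 ± 13.6 FPKM to 80.2 ± 12.1 FPKM. It was at 31.5, 28.9 and 6.79 FPKM in controls 1, 2 and 4, so control 4 was again the lowest, and at 94.6, 67.2, 74.0 and 85.0 FPKM in Foxl2LsL 1 to 4. The Sftpd log2 fold change was 2.04, and 1.37 without control 4. Pglyrp1, which encodes a protein that binds bacterial peptidoglycan, was at 21.4, 16 and 11.5 FPKM in controls and 91.9, 23.0, 36.5 and 81.0 FPKM in Foxl2LsL 1 to 4, the same order as Lcn2 within the latter. Its log2 fold change of 1.60 passed (limma adjusted p 0.0303) but lost its call without control 2 or 4 or Foxl2LsL 1 or 4. Wfdc1, another WAP gene, fell from 79.4 ± 42.6 to 19.7 ± 1.96 FPKM, against the rise of Wfdc2. Lbp, the lipopolysaccharide-binding protein, fell from 163 ± 26.2 to 75.2 ± 5.09 FPKM.

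In the rest of the S100 family, 2 of 10 genes tested were higher and 2 lower, with a median log2 fold change of -0.01. S100g, which encodes the calcium carrier calbindin-D9k, rose from 83.4 ± 35.6 FPKM to 284 ± 64.8 FPKM. S100a1 had a log2 fold change of 0.43, S100a6 of -0.79 and S100a10 of -0.40. S100a1 lost its call without control 1 or 2 or Foxl2LsL 3, S100a6 without Foxl2LsL 2 or 3, and S100a10 in each fit without 1 library except that without Foxl2LsL 4. S100a6 and S100a10, unlike S100a8 and S100a9, were abundant, at 184 ± 57.7 and 293 ± 31.8 FPKM in controls.

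Receptors for these proteins and the proteases they act on had 4 of 13 tested genes higher and 1 lower, with a median log2 fold change of 0.10. Tlr4, which senses lipopolysaccharide and is also a receptor for calprotectin, rose from 3.67 ± 0.441 FPKM to 5.83 ± 0.210 FPKM. Klk1, a kallikrein protease, rose from 0.784 ± 0.191 to 5.06 ± 0.953 FPKM, and Prss8 and Tlr2 had log2 fold changes of 0.62 and 0.42. Prss8 lost its call without control 2 or 4 or Foxl2LsL 1, 3 or 4, and Tlr2 in each fit without 1 library except that without Foxl2LsL 2. Slc22a17, a receptor for lipocalin 2, and Lrp1, a receptor for lactoferrin, did not pass, at 26.0 ± 1.14 and 22.4 ± 2.25 FPKM and at 27.4 ± 4.28 and 22.5 ± 2.79 FPKM. Both passed with array weights, and Slc22a17 also without Foxl2LsL 2. Lrp2, also of this list, did not pass either, at 12.8 ± 19.0 and 0.252 ± 0.145 FPKM (log2 fold change -2.32, limma adjusted p 0.0681). Its groups did not overlap, and it passed in 4 of the 19 alternatives.

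Of 40 genes that induce defence proteins or relay the signal, 25 were tested. Of these, 10 were higher and 1 lower past the threshold, against 16.7% higher and 23.9% lower of all genes tested. Their median log2 fold change was 0.31. Csf3, which encodes the granulocyte colony-stimulating factor, rose from 3.08 ± 0.840 FPKM to 21.5 ± 5.84 FPKM, a log2 fold change of 2.44 (SE 0.25; limma adjusted p 0.000572). Nfkbia, the inhibitor that NF-kappaB itself induces, rose from 36.7 ± 3.83 to 91.0 ± 19.2 FPKM. Nod1, a cytosolic sensor of bacterial peptidoglycan, rose from 12.1 ± 1.71 to 26.2 ± 0.668 FPKM, and Stat3, a transcription factor downstream of several cytokines, from 33.4 ± 4.57 to 61.8 ± 3.94 FPKM. These 4 kept their calls in all 19 alternatives. So did Esr1, which encodes an estrogen receptor, at 39.8 ± 6.91 and 58.2 ± 2.29 FPKM (log2 fold change 0.55, limma adjusted p 0.00662). Cebpb, a C/EBP gene, was higher (log2 fold change 0.56, limma adjusted p 0.0415) and lost its call in 7 of the 19. Cebpa was the 1 lower (log2 fold change -0.49, limma adjusted p 0.0371) and lost its call in 9. Cebpd did not pass (log2 fold change 0.16). The part of these factors in the levels of Ltf and Lcn2 was not tested. Il17a and Il22, cytokines that induce Lcn2 in many epithelia, were listed at 0 in all 7 libraries, and Il1b and Tnf were below 1 FPKM in each.

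**Figure D5:**
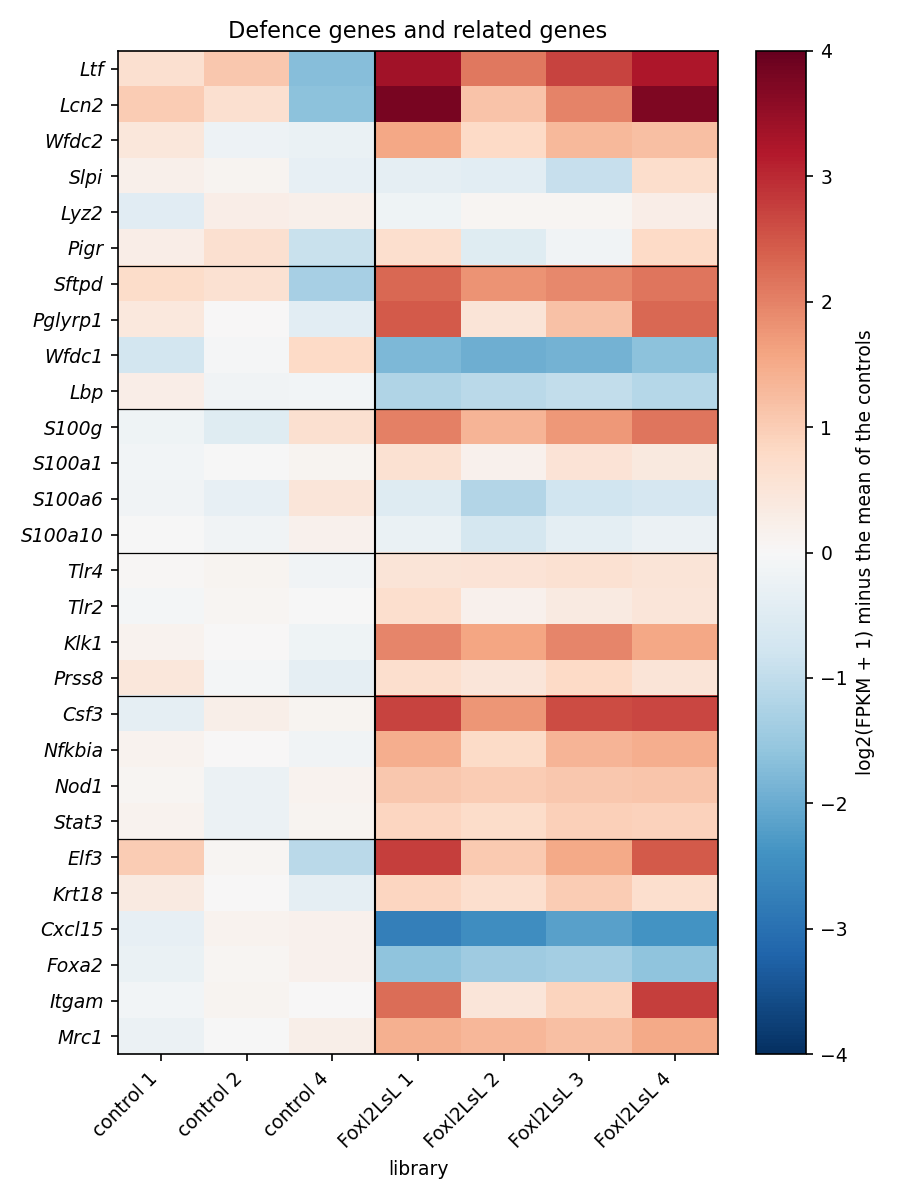
Difference of log2(FPKM + 1) from the mean of the 3 controls for the 6 tested defence genes (top block), then other secreted defence genes, S100 genes, receptors and proteases, inducers, and markers of epithelium, glands and macrophages, in each of the 7 libraries. Ltf, Lcn2, Pglyrp1, Elf3 and Itgam share a pattern in which Foxl2LsL 1 and 4 are the highest, and the gland genes Cxcl15 and Foxa2 are lower in all 4 libraries labelled Foxl2LsL. Foxl2LsL 1 and 4 are also the most alike of all pairs over all genes tested.

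The tested protein-coding genes that flank the 3 risen genes were read from GENCODE M21, a choice made after seeing the data. Ccrl2, 11718 bases beyond Ltf, was at 1.64 ± 0.129 FPKM and 1.77 ± 0.302 FPKM, and Als2cl on its other side at 31.2 ± 7.82 and 38.9 ± 6.36 FPKM. Beside Lcn2, 1110008P14Rik was at 22.8 ± 3.46 and 24.0 ± 10.8 FPKM and Ptges2 at 12.5 ± 1.78 and 10.8 ± 2.06 FPKM. Beside Wfdc2, Pigt was at 54.4 ± 9.94 and 60.8 ± 7.08 FPKM and the WAP gene Wfdc6a at 0.842 ± 0.606 and 1.60 ± 0.356 FPKM. None of these 6 neighbours passed (limma adjusted p 0.112 to 0.957).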

How the data were processed

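Uterus RNA was extracted with TRIzol and sequenced from Illumina libraries, per the labels' protocols. The authors deposited 1 table of FPKM values per gene and library, with another value, the gene length in bases, per the file headers. The submitters' processing notes name STAR 2.5.2b, featureCounts 1.5.0-p1 and mm10 without their roles; the use of strand and the treatment of shared reads are not given in the sources used here. FPKM divides by the whole library, so a strong rise of some genes lowers others.

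Groups came from the titles in the labels, and columns were matched by description. Fragments were recovered as whole multiples of FPKM times length, from genes of 200 to 1500 bases with values of at most 20 multiples. Within every library, 100.0% of 1338 to 1466 low values lay within 0.1 of a whole number. Log2(FPKM + 1) of genes with a mean of at least 1 FPKM was tested with limma 3.58.1 in R 4.3.3 (intensity trend, Benjamini-Hochberg). Ratios were tested by exact permutation over 35 splits (scipy 1.17.1, Python 3.11.15). In a test on simulated data with 13334 genes, 186 out of 200 changes of 1.5 (log2) were called in the right direction. There, 18 unchanged genes were called as well. The simulated noise was independent between genes, with spreads shuffled among them. It therefore does not reproduce a library that stands apart, such as control 4. The 10 genes and the 14 lists were chosen with earlier results of these data known. The naming rule took the 10 members, Foxl2, Lyz1, Ngp and Elane whatever their result, up to 4 of each list past the threshold with the largest change, and the most abundant of each marker list. Some genes that the rule gave are not described, mainly of the smooth muscle, stroma and oviduct lists. Others were named after their values were seen. Alternatives are given in the closing section; the fit with array weights stopped before its convergence tolerance. GENCODE M21 and RefSeq promoters are on GRCm38, the same build as mm10. DNA coordinates of promoters and genes come from those tables, not from the deposited file.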

Additional observations from a re-analysis of the deposited data

Results flagged for a closer look

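In Foxl2LsL 2, Csf3 was at 12.8 FPKM against 23.5 to 25.1 FPKM in the other 3 libraries of its group, a gap of 0.871 of the group's range, beyond Dixon's 95% limit for 4 samples. Nfkbia was low in the same library, at 62.5 FPKM against 96.3 to 103 FPKM, a gap of 0.842 of the range. Both stayed above all 3 controls. Of 52 genes examined in this group 2 stood out in this way, and chance alone gives about 1 in 20.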

How the results depend on the processing

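Results were recomputed in 19 alternative fits. The count of genes past the threshold was 5409, 3853 to 5328 in the 7 fits without 1 library, and 3243 with the replicate block (numbers 1, 2 and 4 of both groups). The count of defence genes past it was 3, 2 to 3 without 1 library, and 1 (Wfdc2) with the replicate block, where Ltf had an adjusted p of 0.0561 and Lcn2 of 0.0886 by limma. The block uses 6 libraries, and without Foxl2LsL 3 and without the block 3975 genes and both Ltf and Wfdc2 passed. Between the control and the Foxl2LsL library of equal number, deviations correlated at 0.228 for number 1, -0.0306 for number 2 and -0.112 for number 4. The labels do not say what the number means. With so few libraries these values cannot decide whether those of equal number were handled together, so the fit with the block is not set aside. The median log2 fold change of the defence genes was 0.72, 0.62 to 0.90 without 1 library, and 1.22 with a filter at 5 FPKM, which drops Slpi. The log2 difference of the Ltf to Lcn2 ratio ranged from -0.14 to 0.35 and that of S100a8 to S100a9 from -0.39 to 0.63 without 1 library, and the latter was -0.06 for the ratio of FPKM + 1, so neither direction is settled. That of the Slpi to Wfdc2 ratio ranged from -2.01 to -1.24. Divided by epithelium markers, the differences of Lyz2 and Pigr turned to -0.51 and -0.35, a shift that this division gives to every gene alike. Of the 48 tested genes that the naming rule gave, 40 passed, 23 of these kept their call in every fit that tested them, and 0 changed direction with a call. Some of the 48 are not described above, and genes named outside the rule are not in this count. For these changes the cause was not tested. Depth limits S100a8, S100a9, Camp and Defb1, with at most 23 fragments in a library.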

Other observations

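Bpifb1 and Nos2, below 1 FPKM on average, were lower in all 4 libraries labelled Foxl2LsL than in all 3 controls, opposite to Ltf and Lcn2. They were chosen after their values were seen and are given without a test. Bpifb1, a secreted protein of the airway and other mucosal epithelia related to bactericidal permeability-increasing protein, was at 0.875 to 0.964 FPKM in controls and 0.0800 to 0.200 FPKM in the libraries labelled Foxl2LsL, from 310 and 52 fragments in all. Nos2, which encodes inducible nitric oxide synthase, was at 0.668 to 0.977 and 0.195 to 0.300 FPKM. Duox2, which makes hydrogen peroxide at epithelial surfaces, was above the filter and rose, at 0.215 to 0.608 and 1.40 to 2.07 FPKM (log2 fold change 0.95, limma adjusted p 0.00232).

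Control 4, lowest of all libraries for Ltf, Lcn2 and Pigr, was the highest for others of the listed genes, and 3 of these stood far from the other libraries. Lrp2, a large endocytic receptor, was at 34.7 FPKM there and at 0.814 and 2.74 FPKM in controls 1 and 2. In the libraries labelled Foxl2LsL it was at 0.118 to 0.453 FPKM. Wfdc3 was at 7.84 FPKM in control 4 and at 0.442 and 0.598 FPKM in controls 1 and 2. In the libraries labelled Foxl2LsL it was at 0.128 to 0.282 FPKM. Lyz1 was at 3.46 FPKM in control 4 against at most 0.976 FPKM in the other libraries. For all 3 genes, every library labelled Foxl2LsL was below every control. Saa3, an acute-phase protein, was at 9.43 FPKM in Foxl2LsL 4 and at 0.197 to 3.50 FPKM in the other 6 libraries.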
